A study of Drosophila melanogaster with 6 samples.

Results

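The Toll receptor family was followed in indirect flight muscles (IFMs) of Drosophila melanogaster at 72 hours after puparium formation (APF), in muscles that were made to express the Hox protein Antp and in control muscles. The family was taken as 8 receptor genes listed by name, *Tl*, *18w*, *Tehao*, *Toll-4*, *Toll-6*, *Toll-7*, *Toll-9* and *Tollo*, of 17611 genes in the count table. The family was selected on the counts of *Tehao* in these same libraries, where it was nearly lost with UAS-Antp, so the fall of *Tehao* is given as a description with no test. The other 7 members came in by family name.

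RNA-seq was performed on muscles of the genotypes Act88F-Gal4;UAS-Antpnls and Act88F-Gal4;UAS-GFPnls, called UAS-Antp and UAS-GFP here, with 3 libraries each. Both carry the Act88F-Gal4 driver, which acts in the flight muscles, so the controls express a nuclear GFP under the same driver. Pupae were kept at 25°C, and each sample pooled muscles dissected by hand from 6 to 8 pupae, so a library averages several animals and may hold whatever tissue adheres to the fibers. The labels only number the samples as replicates, and the methods describe the RNA-seq libraries as technical replicates of 1 biological replicate, so P values measure the spread between these libraries and not between independent groups of animals. Libraries carry here the numbers 1 to 3 of the count table, and the UAS-Antp numbers could not be matched to single samples.

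Total counts ran from 63217976 to 77781458 with UAS-Antp and from 47460809 to 64485309 with UAS-GFP. The labels fitted the targeted gene: *Antp* averaged 6864 CPM (counts per 1000000) with UAS-Antp and 1.53 CPM with UAS-GFP. The flight muscle actin *Act88F* averaged 1400 CPM with UAS-Antp and 75391 CPM with UAS-GFP, and the tubular muscle actin *Act79B* 12398 CPM against 79.3 CPM. With TMM scaling (below), all 10 flight muscle markers were lower and all 3 tubular muscle markers higher with UAS-Antp, but with library totals *Tm2* was at 0.05 on the log2 scale and did not pass (adjusted P = 0.669 by edgeR), nor did *sls* (-0.43, adjusted P = 0.0203). These very abundant genes take different shares of the libraries, and TMM scaling, which aligns libraries on their typical gene, gave factors of 1.535 to 1.603 with UAS-Antp and 0.609 to 0.674 with UAS-GFP. CPM values below are scaled this way. With library totals instead, the median log2 fold change of all genes is 1.48 in place of 0.17, so signs that turn between the scalings are given beside the values.

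Toll receptors are transmembrane proteins with leucine-rich repeats outside the cell and a TIR signaling domain inside. Toll itself patterns the dorsal-ventral axis of the embryo and, in the fat body and blood cells, drives the response to fungi and Gram-positive bacteria. It is activated by cleaved Spätzle, a cystine-knot ligand, and signals through the adaptors Myd88 and Tube and the kinase Pelle to release the NF-κB factors Dorsal and Dif from their inhibitor Cactus. Several of the other receptors are known for roles outside immunity, such as cell rearrangement in epithelia and neurotrophin signaling.

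*Tehao*, also called Toll-5, is one of the receptors closest to Toll itself. It had 0, 6 and 0 counts in UAS-Antp libraries 1 to 3, against 4249, 2802 and 3244 counts in UAS-GFP libraries 1 to 3. The only reads in the UAS-Antp muscles thus came from library 2, and the groups lay far apart. In CPM this was 0.0160 ± 0.0278 with UAS-Antp and 94.4 ± 10.4 with UAS-GFP (SD, n = 3 each). Summed over libraries there were 6 counts with UAS-Antp and 10295 with UAS-GFP and the ratio of pooled CPM (UAS-GFP over UAS-Antp) was 5271. The highest UAS-Antp library was at 0.0481 CPM and the lowest UAS-GFP library at 87.7 CPM, 1821 times as much, or 704 times with library totals. The fitted log2 fold change of -12.23 was the lowest of the 9546 genes tested, with 0 genes below it, and it depends on the prior count of the fit because most UAS-Antp libraries were at 0. Without UAS-Antp library 2 it was -15.54. In muscle tissue taken in bulk, fewer cells that express a gene and less RNA per cell cannot be told apart.

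*Tl* encodes Toll. It had 679, 1050 and 799 counts in the UAS-Antp libraries, against 525, 302 and 390 in the UAS-GFP libraries. In CPM it averaged 7.56 ± 1.08 with UAS-Antp and 11.1 ± 1.88 with UAS-GFP (SD, n = 3 each), and the groups did not overlap. The log2 fold change was -0.56 (SE 0.19, 95% interval -0.97 to -0.14, adjusted P = 0.0251 by edgeR's quasi-likelihood test), which did not pass the threshold of 0.001. Its sign turns with the scaling: with library totals the value was 0.77 (adjusted P = 0.0038).

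*18w* (18 wheeler) is known for its part in egg chamber and embryonic morphogenesis. It had 1330, 1813 and 2067 counts in the UAS-Antp libraries and 349, 315 and 396 counts in the UAS-GFP libraries. Its level was 15.8 ± 4.15 CPM with UAS-Antp and 9.83 ± 1.07 CPM with UAS-GFP (SD, n = 3 each), with UAS-Antp library 3 at 20.4 CPM the highest and no overlap. The log2 fold change was 0.69 (SE 0.20, 95% interval 0.24 to 1.13, adjusted P = 0.0131 by edgeR).

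*Toll-7* encodes a neurotrophin receptor that also takes part in antiviral defense. It had 960, 1257 and 857 counts with UAS-Antp and 184, 193 and 195 counts with UAS-GFP. Its level was 9.18 ± 0.822 CPM with UAS-Antp and 5.33 ± 0.715 CPM with UAS-GFP (SD, n = 3 each), and the groups did not overlap. The log2 fold change was 0.78 (SE 0.18, 95% interval 0.39 to 1.18, adjusted P = 0.00321 by edgeR), short of the threshold. With library totals, *18w* and *Toll-7* passed at 2.01 and 2.10.

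*Tollo*, or Toll-8, acts with other receptors in the polarized rearrangement of embryonic cells. It had 2294, 2777 and 1916 counts with UAS-Antp and 923, 633 and 598 counts with UAS-GFP, or 20.9 ± 1.73 CPM and 19.8 ± 3.34 CPM (SD, n = 3 each). The groups overlapped, and the log2 fold change was 0.08 (SE 0.15, 95% interval -0.26 to 0.42, adjusted P = 0.682 by edgeR). With library totals it was 1.39 (adjusted P = 2.04e-05). Relative to the median of all genes, *Tollo* was at -0.09, *Tl* at -0.72, *18w* at 0.52 and *Toll-7* at 0.62 on the log2 scale, and library totals gave -0.09, -0.71, 0.52 and 0.61.

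None of the 4 other tested receptors passed the threshold of 0.001, a count to read beside 35.6% of all genes tested. 3 of the 4 had an unadjusted P under 0.05. DESeq2 called 0 of 6, against 4264 of all 11064 genes that it tested. In 3 of the 4 the groups did not overlap, against 68.3% of all genes tested.

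**Figure D1:**
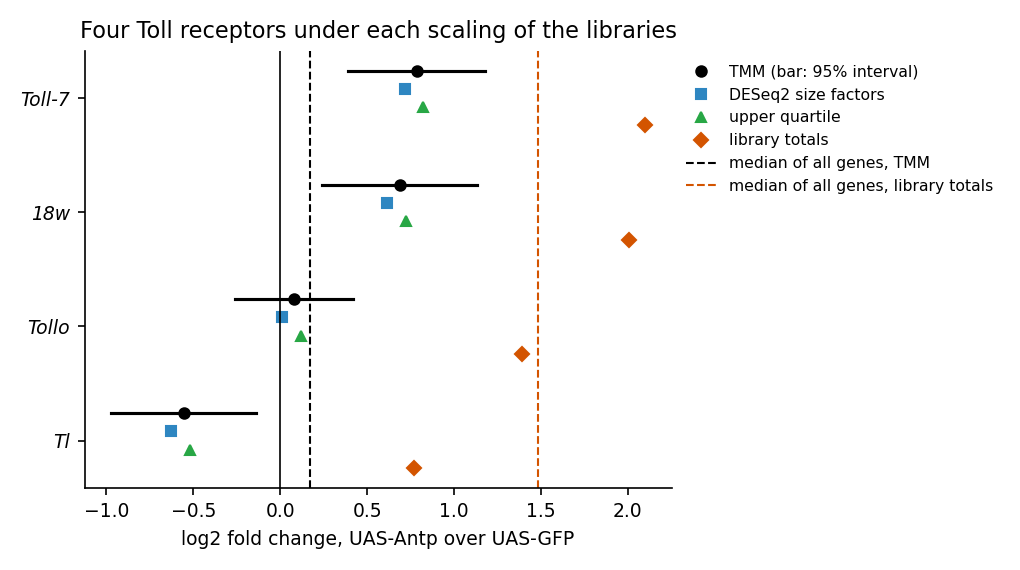
Log2 fold changes (x axis, UAS-Antp over UAS-GFP) of the 4 tested receptors other than *Tehao* under 4 scalings of the libraries, with the 95% interval of the TMM value as a bar and the medians of all genes as dashed lines. Library totals move each receptor by about the shift of the median, and *Tl* from -0.56 to 0.77.

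*Toll-4*, *Toll-6* and *Toll-9* were at or near 0 and did not pass the filter on low counts. *Toll-6*, another neurotrophin receptor, had 0, 28 and 15 counts in the UAS-Antp libraries and 0, 0 and 0 in the UAS-GFP libraries. *Toll-4* had 0, 0 and 0 counts with UAS-Antp and 4, 0 and 4 with UAS-GFP. *Toll-9* had 0 counts in all 6 libraries. Without the filter, the log2 fold changes of *Toll-6* and *Toll-4* were 6.22 and -5.43 with adjusted P of 0.132 and 0.161 by edgeR, and neither passed. *Toll-6* was above 3 counts in 2 UAS-Antp libraries and in 0 UAS-GFP libraries, so a difference is neither shown nor excluded. The floor of 3 counts, taken as not detected and covering counting error only, is 0.0241 to 0.0297 CPM in the UAS-Antp libraries and 0.0751 to 0.0939 CPM in the UAS-GFP libraries. *MstProx*, or Toll-3, was not in the list and had 0 counts in all 6 libraries.

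**Figure D2:**
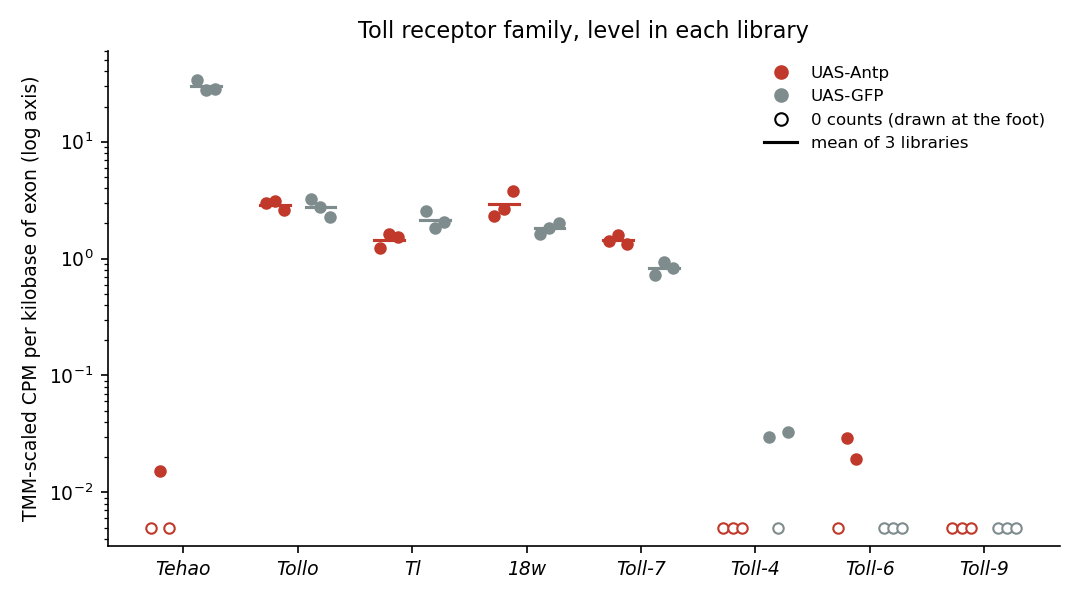
Level of each Toll receptor in each library (y axis, TMM-scaled CPM per kilobase of exon, log axis), with UAS-Antp left of UAS-GFP, filled points for libraries, lines for means of 3 libraries and open points for 0 counts. *Tehao* stands at 0 in all but 1 of the UAS-Antp libraries and at 27.6 to 33.5 in the UAS-GFP libraries, whereas *Tollo*, *Tl*, *18w* and *Toll-7* lie between 0.72 and 3.77 in both groups.

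Levels of different genes were compared per kilobase of exon. In UAS-Antp muscles *18w* (2.92 ± 0.765 CPM per kb, SD, n = 3 libraries as for each level here) and *Tollo* (2.90 ± 0.240) came first and overlapped, and *Tl* (1.45 ± 0.207) and *Toll-7* (1.44 ± 0.129) followed, overlapping each other but not the pair above. In UAS-GFP muscles *Tehao* was by far the most abundant receptor, at 29.7 ± 3.28 CPM per kb, followed by *Tollo* (2.74 ± 0.463), *Tl* (2.14 ± 0.362), *18w* (1.81 ± 0.197) and *Toll-7* (0.834 ± 0.112). In this order, *Tollo* and *Tl* overlapped, as did *Tl* and *18w* (though not with library totals), whereas *Tehao* and *Toll-7* overlapped neither neighbor.

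The share of each receptor in the summed level does not depend on the scaling of the libraries. Shares add up to the whole, so the fall of *Tehao*, on which the family was selected, by itself enlarges the shares of the other receptors with UAS-Antp, and these shares are a description with no test. *Tehao* made up 0.0560% ± 0.0969 of the summed level of the 8 members with UAS-Antp and 79.7% ± 0.768 with UAS-GFP (SD, n = 3 each). *Tollo* made up 33.4% ± 4.71 with UAS-Antp and 7.35% ± 0.770 with UAS-GFP, and *18w* 33.2% ± 6.53 against 4.93% ± 0.940. *Tl* made up 16.6% ± 1.27 with UAS-Antp and 5.72% ± 0.454 with UAS-GFP although its CPM was not higher with UAS-Antp, and *Toll-7* 16.5% ± 1.93 against 2.27% ± 0.495. The summed level was 8.72 ± 0.729 CPM per kb with UAS-Antp and 37.2 ± 3.75 with UAS-GFP. Without *Tehao* it was 8.72 ± 0.726 with UAS-Antp and 7.55 ± 0.480 with UAS-GFP, and the libraries of the groups overlapped. This overlap depends on the scaling. With library totals *18w*, *Tollo*, *Tl* and *Toll-7* averaged 4.62, 4.57, 2.30 and 2.27 CPM per kb with UAS-Antp. With UAS-GFP they averaged 1.15, 1.74, 1.35 and 0.531.

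**Figure D3:**
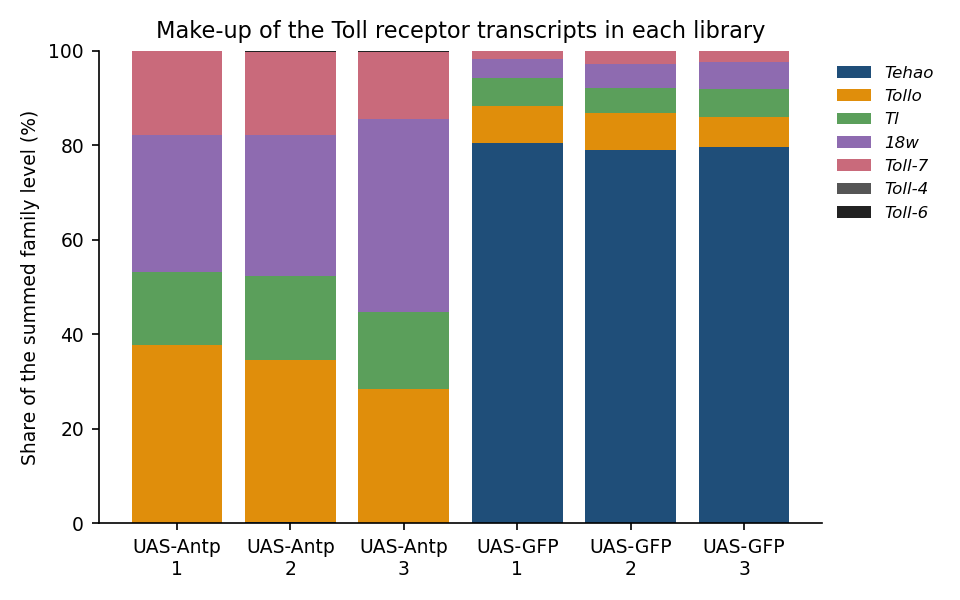
Share of each receptor in the summed family level (y axis, percent of CPM per kilobase) in each library, UAS-Antp libraries at left and UAS-GFP libraries at right. *Tehao* is not visible in the UAS-Antp bars, where *Tollo* and *18w* are the tallest blocks, and fills about 79.7% of each UAS-GFP bar.

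The genes of the family also differ in structure. *Tehao* (FBgn0026760) lies on chromosome 2L at 13435622 to 13439930, on the plus strand, in the dm6 coordinates of the count table, which give it 3181 bases of exon. In the Ensembl annotation it has 2 transcripts of 2 exons each, for a protein of 795 residues, the shortest of the family. *18w* (2R, 20111511 to 20116932), *Toll-6* (3L, 15336692 to 15344315), *Toll-7* (2R, 19826578 to 19832973) and *Tollo* (3L, 15235619 to 15242832) are each a single exon and encode 1346 to 1514 residues. *Tl* (3R, 26799041 to 26842403) has 2 coding exons in each of 3 transcripts and encodes 1097 to 1117 residues. *Toll-4* (2L, 9084107 to 9089440) encodes 1125 residues in 4 exons, and *Toll-9* (3L, 20361843 to 20366724) 826 to 900 residues. *Toll-6* and *Tollo* lie 93859 bases apart with 7 genes between them, and *18w* and *Toll-7* 278537 bases apart with 38 between. No member shares exon bases with another gene on its own strand.

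*Tehao* sits within an intron of 23169 bases of 1 of the 4 transcripts of *CG42784*, a gene on the same strand. *CG42784* had 56, 72 and 41 counts with UAS-Antp and 537, 369 and 362 with UAS-GFP, or 0.502 CPM against 11.6 CPM. Its log2 fold change was -4.53, and -3.21 with library totals. This gene was singled out after its values were seen, so they are a description with no test. Of the nearest genes outside *Tehao*, *Hacd2* had 962, 810 and 895 counts with UAS-Antp and 278, 343 and 390 with UAS-GFP, or 8.12 CPM and 9.47 CPM once scaled (log2 fold change -0.22, adjusted P = 0.405 by edgeR, and 1.09 with library totals). *CG43850*, *CG16956* and *Hsp60D* had at most 12 counts in any library. *asRNA:CR45683*, annotated on the strand opposite to *Tehao* and sharing exon bases with it, was counted apart in libraries made with a stranded kit and had 0, 8 and 8 counts with UAS-Antp and 4, 0 and 18 with UAS-GFP.

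**Figure D4:**
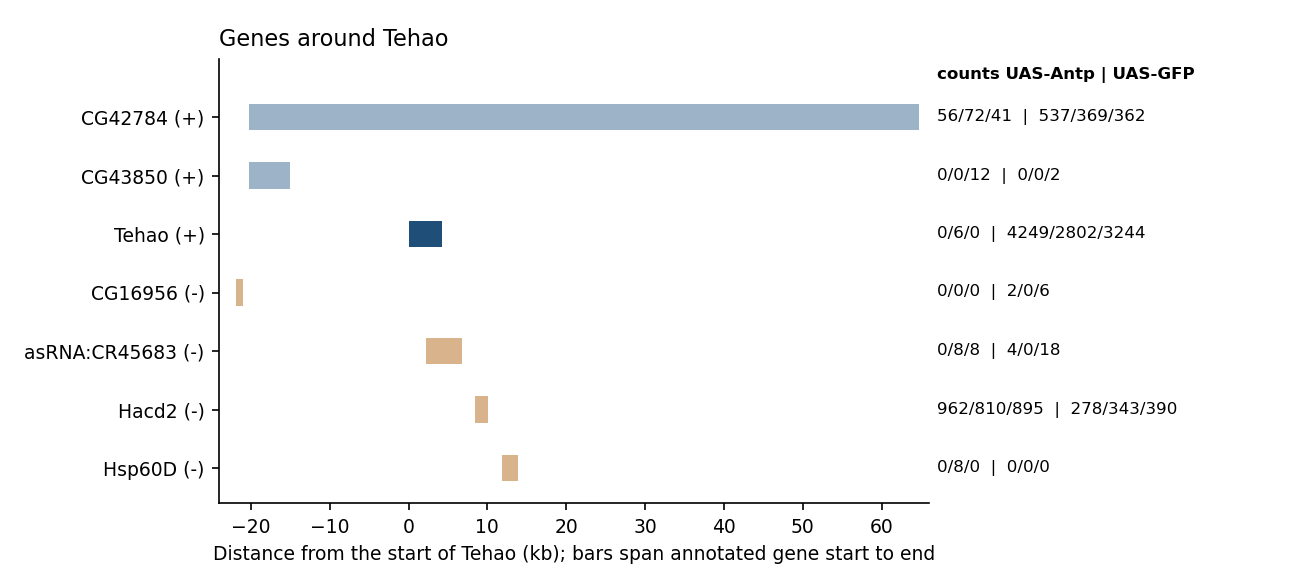
Genes around *Tehao* by distance from its start (x axis, kb), with bars from annotated start to end, strand in brackets and the counts of the UAS-Antp and UAS-GFP libraries at right. *Tehao* and *CG42784*, which spans it, have the lower counts with UAS-Antp. The counts drawn are not scaled: *Hacd2* averages 8.12 CPM with UAS-Antp and 9.47 CPM with UAS-GFP.

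The 5 genes whose profiles were nearest to that of *Tehao*, by Euclidean distance of log2(CPM + 0.1) over the 6 libraries, were *CG13203* (distance 1.53), *CG15530* (1.82), *nkt* (4.10), *CG42337* (4.22) and *lncRNA:CR43234* (4.31). They were chosen for this likeness and are not tested. *CG13203* had 0, 10 and 4 counts with UAS-Antp and 6498, 5584 and 5745 with UAS-GFP, and *CG15530* had 0, 36 and 12 against 3832, 3153 and 2716. The other 3 had 0 to 54 counts with UAS-Antp and 651 to 2276 with UAS-GFP. With a pseudocount of 1 CPM, 3 of these 5 stayed among the nearest.

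Of the 6 Spätzle family ligands, all tested, 1 was lower and none higher (16.7%, against 35.6% of all genes tested), and their median log2 fold change was -1.21, against 0.17 over all genes. The ligand that fell was *spz4*, with 1212, 1504 and 764 counts with UAS-Antp and 3469, 4096 and 3950 with UAS-GFP. In CPM it was 10.3 ± 2.42 with UAS-Antp and 108 ± 20.6 with UAS-GFP (SD, n = 3 each), and the log2 fold change was -3.38 (SE 0.21, adjusted P = 2.58e-07 by edgeR). *spz*, the ligand of Toll, was at -0.10 (adjusted P = 0.614), and the neurotrophins *NT1* and *spz5* were at -3.31 (adjusted P = 0.0227) and -0.95 (adjusted P = 0.00265), which did not pass. *spz3* and *spz6* were at 0.59 and -1.47 and did not pass. With library totals the sign turned for *spz*, at 1.21 (adjusted P = 8.07e-05 by edgeR), and for *spz5*, at 0.36 (adjusted P = 0.162).

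In the extracellular cascade of recognition proteins, proteases and serpins, 14 of 19 genes were tested, 1 was higher and none lower (7.14%, against 35.6% of all genes tested), with a median log2 fold change of 0.19. The gene was *nec*, the serpin Necrotic that restrains the cascade, at 366, 452 and 415 counts with UAS-Antp and 26, 38 and 48 counts with UAS-GFP. Its log2 fold change was 1.82 (SE 0.34, adjusted P = 0.000946 by edgeR), and it passed in none of the 6 fits that left out a library.

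Of 10 cytoplasmic signaling genes, all tested, 2 were higher and 1 lower, a share of 30.0% that is near the 35.6% of all genes tested, and the median log2 fold change was -0.20. *Pli*, which encodes Pellino, an E3 ligase acting on the pathway, averaged 73.7 ± 10.03 CPM with UAS-Antp and 21.8 ± 3.31 CPM with UAS-GFP (SD, n = 3 each), a log2 fold change of 1.75 (SE 0.15, adjusted P = 3.04e-06 by edgeR). *mop* (Myopic, needed for endosomal Toll signaling) rose by 0.87 (adjusted P = 9.13e-05 by edgeR) and passed in 4 of the 6 fits that left out a library. *cactin*, whose product binds Cactus, was lower at -0.70 (adjusted P = 0.000877 by edgeR), but passed in none of the fits that left out a library, and library totals turned it to 0.61. The core of the pathway did not pass: *Myd88* was at -0.31, *tub* at -0.13, *pll* at -0.90, *Traf6* at 0.02 and the inhibitor *cact* at -0.41, with adjusted P from 0.00324 to 0.953. With library totals the negative values turned positive, at 1.01 for *Myd88*, 1.18 for *tub*, 0.42 for *pll* and 0.91 for *cact*, of which *Myd88*, *tub* and *cact* passed, as did *Traf6* at 1.35.

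Of the 3 NF-κB factors, 1 passed (33.3%, against 35.6% of all genes tested). *Dif* had 2250, 2321 and 1488 counts with UAS-Antp and 184, 99 and 140 with UAS-GFP, so all UAS-Antp libraries were higher. It averaged 18.1 ± 3.19 CPM with UAS-Antp and 3.85 ± 0.756 CPM with UAS-GFP (SD, n = 3 each), a log2 fold change of 2.23 (SE 0.21, adjusted P = 5.64e-06 by edgeR). *dl*, which encodes Dorsal, was at -0.01 (adjusted P = 0.967) and *Rel*, the factor of the Imd pathway, at 0.79 (adjusted P = 0.0131). With library totals *dl* was at 1.31 and *Rel* at 2.11, and both passed.

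**Figure D5:**
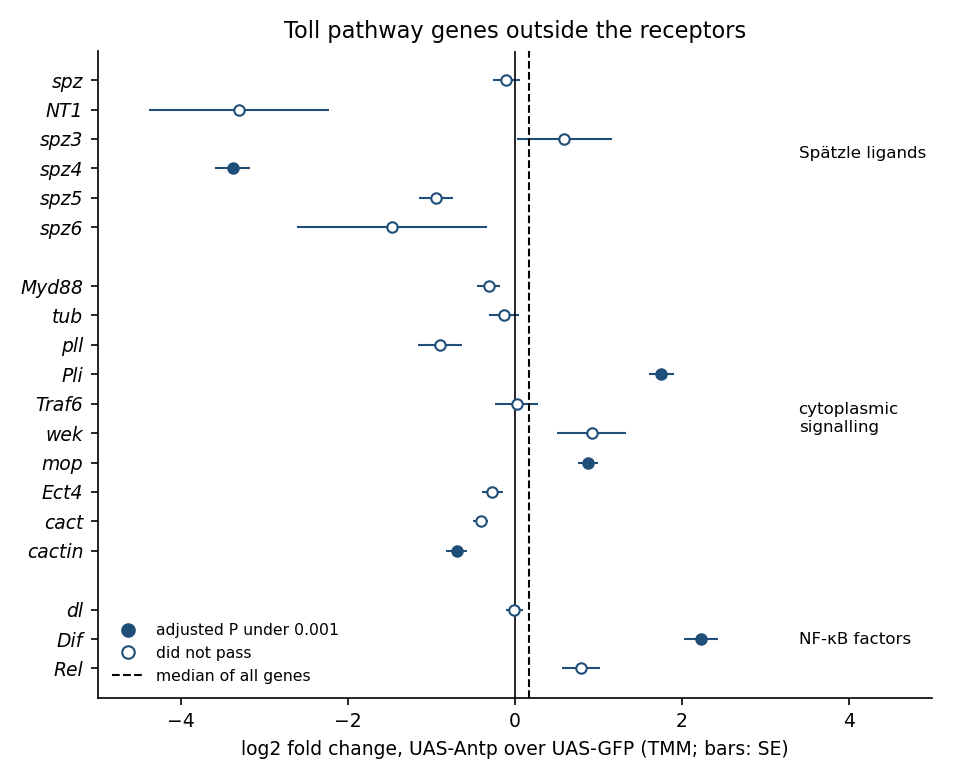
Log2 fold changes (x axis, UAS-Antp over UAS-GFP, TMM) of Spätzle ligands, cytoplasmic signaling genes and NF-κB factors, with SE as bars, filled points for adjusted P under 0.001 and a dashed line at the median of all genes. *Dif* and *Pli* stand furthest right at 2.23 and 1.75, and *spz4* furthest left among those that passed, at -3.38.

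The Imd pathway, the other immune pathway of the fly, had 5 of 13 tested genes higher and none lower, with a median log2 fold change of 0.57. This share of 38.5% is near the 35.6% of all genes tested that passed in either direction. The Imd genes that passed were all higher, whereas over all genes tested 16.3% were higher and 19.3% lower. This difference in direction was not tested. *pirk*, an inhibitor of the pathway, had 155, 172 and 79 counts with UAS-Antp and 0, 0 and 2 with UAS-GFP. It passed the filter on low counts only through its UAS-Antp counts, so its log2 fold change of 5.90 is a description. Its place among the 5 higher genes rests on these counts, and it passed in only 1 of 6 fits without a library. *PGRP-LF*, another inhibitor, rose by 2.33 (adjusted P = 0.000121), and the adaptor *Fadd* by 2.23 (adjusted P = 0.000358), the second passing in 2 of these fits. *Tak1* rose by 1.60 (adjusted P = 6.87e-07 by edgeR) and *IKKbeta* by 1.41 (adjusted P = 2.74e-05 by edgeR). *Tak1*, *IKKbeta* and *PGRP-LF* passed in all 6 of these fits.

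A list of antimicrobial peptides and of peptides known as Toll targets was at low counts in both groups. The list was not split by the pathway that drives each gene. Of the 36 genes, 18 had at most 3 counts in every library. None of 8 tested passed by edgeR, with 4 at an unadjusted P under 0.05, whereas 35.6% of all genes tested passed by edgeR. DESeq2 called 0 of 12, against 4264 of all 11064 genes that it tested. The log2 fold changes of the 8 ran from 0.04 for *Dro* to 6.89 for *BomS2*, with a median of 1.56. *BomS2* and *DptA*, at 0 to 2 counts in the UAS-GFP libraries, passed the filter on low counts only through their UAS-Antp counts. *AttD* (4, 0 and 12 counts with UAS-GFP), *Mtk* (16, 0 and 4) and *BomS3* (20, 0 and 0) passed it largely through theirs. The filter thus in part sets this range and median, which are a description with no test. *BomS2*, *DptA* and *AttD* are also among the 4 at an unadjusted P under 0.05. *Drs*, the classic Toll target, had 427, 79 and 185 counts with UAS-Antp and 22, 31 and 43 with UAS-GFP (log2 fold change 1.26, adjusted P = 0.11 by edgeR). *BomS2* had 20, 17 and 28 counts with UAS-Antp and none with UAS-GFP.

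Other surface proteins with leucine-rich repeats but no TIR domain were taken for comparison. Of 18 tested, 4 were higher and 1 lower (27.8%, against 35.6% of all genes tested), with a median log2 fold change of 1.04. *Fili* rose most, with 18261, 19683 and 13971 counts with UAS-Antp and 102, 124 and 96 with UAS-GFP (log2 fold change 5.69, adjusted P = 6.56e-09 by edgeR). *Lgr4*, a receptor, rose by 5.13 and *caps*, a cell recognition protein, by 3.02. *Lrt*, which is also in the tendon marker list, was lower at -2.13 (adjusted P = 0.000512 by edgeR), but passed in 2 of 6 fits without a library and not with library totals. The difference between this list and the Toll receptors was not tested.

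Markers of other cell types that dissected muscle could hold were summed in CPM. None of 6 tested blood cell markers passed, at 46.8 to 79.1 with UAS-Antp and 43.6 to 47.3 with UAS-GFP. None of 7 fat body markers passed, at 364.7 to 575.6 against 308.7 to 571.3. None of 5 neuronal markers passed, at 49.6 to 76.8 against 47.1 to 55.9, and none of 3 tested myoblast markers, at 23.2 to 25.6 against 34.1 to 39.3. With library totals, all tested markers of these lists were at positive values. Those that passed were *eater*, *Pxn*, *srp*, *crq*, *Lsp1gamma*, *Lsp2*, *Fbp1*, *apolpp*, *elav*, *nSyb*, *Appl* and *zfh1*. Among them the sign turned for *Lsp2* (-0.02 to 1.30), *Pxn* (-0.18 to 1.13) and *zfh1* (-0.64 to 0.68). Markers of testis and ovary stood at 1.02 CPM or less in every library, and the 1 tested did not pass. Tracheal markers were lower in 4 of 5 genes, at 530.7 to 624.1 with UAS-Antp and 982.3 to 1092 with UAS-GFP, and 1 of these 4, *serp*, also passed with library totals. Of 3 glial markers, *repo* and *moody* were higher and *Gli* was at -0.13 (adjusted P = 0.416, and 1.19 with library totals), with 76.2 to 82.2 for the list with UAS-Antp and 42.4 to 50.3 with UAS-GFP, and 2 of 5 markers of epidermis and tendon were lower, with 15.9 to 27.2 for the list against 41.3 to 56.6, though neither passed with library totals and *knk* turned to 0.06. The blood cell marker *He* had at most 4 counts in any library and the myoblast marker *twi* at most 16. The part of these tissues in the Toll receptor values was not tested.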

How the data were processed

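IFM RNA-seq libraries were analyzed as 3 of UAS-Antp and 3 of UAS-GFP. The counts deposited by the authors are whole numbers of reads per gene, without normalization; per the labels, bcl2fastq, Subread, featureCounts and DESeq2 1.34 were used with the dm6 genome. The table of the authors' comparison, with fold changes and p-values, was used for gene symbols only. In each library, 75.0% to 81.0% of the counts between 5 and 50 were even, so both mates of a pair may have been counted.

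After filterByExpr, 9546 genes remained. TMM scaling and the quasi-likelihood test of edgeR 4.0.16 (R 4.3.3) followed, and P values were adjusted by Benjamini-Hochberg across every gene tested, with a threshold of 0.001. The SE is the log2 fold change divided by the square root of F. CPM are per 1000000 scaled counts. Alternatives were DESeq2 1.42.0, 3 other scalings, 2 other filters, a threshold of 0.05 and leaving out each library. The method was tested on simulated data. At the threshold of 0.001 it called 10 of 33 genes with a 2-fold rise and 11 of 31 with a 2-fold fall. It called 1 of 9092 unchanged genes. A 2-fold change thus often missed the threshold in that data. There 9092 of 9283 genes were unchanged, whereas 3397 of the 9546 genes passed in the muscle libraries. How often a change of 2-fold or less misses the threshold in the muscle libraries was not tested.

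Named genes are the 8 members and the genes of the ligand, cytoplasmic, NF-κB and Imd lists that passed. From each other list they are the 3 largest rises and falls among those that passed. The 5 genes nearest to *Tehao* in profile and its nearest 2 genes on each side are also named. Outside this rule, some genes of the lists that did not pass are named beside them. So are *Antp*, *Act88F*, *Act79B*, other cell type markers, *CG42784*, *asRNA:CR45683* and *MstProx*. Members and lists were chosen with earlier results of these data known. 7 members were matched by symbol and 1, *18w*, through a gene name table.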

Additional observations from a re-analysis of the deposited data

How the results depend on the processing

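No paired analysis was possible because the labels number the groups 1 to 3 and 4 to 6. Library totals gave 5655 genes called, 3 Toll receptors (*18w* 2.01, *Toll-7* 2.10, *Tollo* 1.39), *Tl* reversed at 0.77, *Tehao* at -10.95, and 2 ligands, 3 extracellular, 8 cytoplasmic, 3 NF-κB, 12 Imd, 1 peptide and 10 leucine-rich repeat genes. A threshold of 0.05 gave 5807 genes, 3 Toll receptors (*Tl* -0.56, *18w* 0.69, *Toll-7* 0.78), 3 ligands, 2 extracellular, 5 cytoplasmic, 2 NF-κB, 10 Imd, 4 peptide and 10 leucine-rich repeat genes. DESeq2 gave 2 ligands and 2 extracellular genes (4264 genes in all), no filter 2 ligands, and DESeq2 size factors 0 extracellular genes. Leaving out a library gave 2758 to 3043 genes, *Tl* -0.69 to -0.42, *18w* 0.46 to 0.83, *Toll-7* 0.68 to 0.85, *Tollo* -0.052 (reversed, without UAS-GFP library 3) to 0.20, *Tehao* -15.54 to -11.70, 0 Toll receptors, 1 to 2 ligands, 0 extracellular, 1 to 2 cytoplasmic, 1 NF-κB, 3 to 4 Imd, 0 peptide and 4 to 5 leucine-rich repeat genes. Over all settings the adjusted P by edgeR or DESeq2 was 0.0038 to 0.0955 for *Tl*, 9.27e-06 to 0.0596 for *18w*, 3.18e-06 to 0.0165 for *Toll-7* and 2.04e-05 to 0.969 for *Tollo*. The cause of each change was not tested, and 3 libraries per group limit the precision.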
